A study of Caenorhabditis elegans with 3 samples.

Results

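The genes described here encode subunits of the ligand-gated ion channels of Caenorhabditis elegans, taken by symbol prefix: acr and lgc for pentameric channels, glr and nmr for ionotropic glutamate receptors, and ggr, a prefix that no current symbol on the array carried. They were represented by 75 of the 20000 array features, which stood for 72 genes. Of these, 70 had a value on all 3 arrays and were tested among 19316 genes and unnamed features. They comprised 41 lgc, 18 acr, 9 glr and 2 nmr genes. A further 17 genes with such symbols in the RefSeq annotation, among them the GABA receptor gene lgc-35 and the acetylcholine-gated channel gene lgc-46, had no feature assigned to them alone and were not analysed here.

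A ligand-gated ion channel opens a pore when a transmitter binds to it, and so turns a chemical signal at a synapse into a current. Pentameric channels are built from subunits that share a disulfide-closed loop, and in the worm they respond to acetylcholine, GABA, glutamate and several amines, passing either cations or chloride. Ionotropic glutamate receptors form a separate, tetrameric family with AMPA or kainate type and NMDA type subunits. The nematode set of pentameric subunits is unusually large, and most of its well studied members act in neurons, body wall muscle or the pharynx.

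Each of the 3 two-colour arrays compared RNA of adult hermaphrodites carrying embryos, which the labels call TP10, with a mixed reference of wild-type RNA. The labels name 3 TP10 preparations, give no strain, genotype or age for TP10, and do not say what was pooled for the reference or whether the preparations came from separate cultures, so the p-values measure only the spread between them. Values are log2 ratios of TP10 over reference, centred on the median of each array. No dye is named, and this direction is likely from the order of the sample descriptions but not settled; if inverted, every "lower" would read "higher" at the same size. Each mean ratio was set against 0 in limma's moderated two-sided test, p-values were adjusted by Benjamini-Hochberg across the 19316 tested, and an adjusted p of 0.05 was the threshold. No spot intensities were analysed here, and whether a feature exceeded background is unknown.

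The labelled state was checked first. Of 10 oocyte and germ line markers 8 were higher in TP10 and none lower, with a median log2 ratio of 1.96. Of 3 yolk protein genes measured, vit-2 was higher at 1.00 ± 0.27 log2 (SD, n = 3). The yolk protein genes vit-5 and vit-6 did not pass, at 0.27 and 0.41. Sperm markers were lower in 4 of 7 cases (57.1%), and larval molt markers in 5 of 7 (71.4%). Over all features tested, 21.9% were lower and 22.0% higher. The arrays were not free of a trend along the feature numbers. In 80 blocks of 250 consecutive features, the block median ran between -0.42 and 0.75 log2 on array 1, between -0.39 and 0.27 on array 2 and between -0.31 and 0.25 on array 3. The slide position of a feature is not given in the sources used here. For named genes with the symbol prefixes, means after centring each array within these blocks are also given where a call or direction changed. They are given with the difference between the first and last 10000 features kept or without it. Block-centred values of other named genes, such as deg-3, unc-49 or acc-1, are not given here.

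More channel subunit genes were lower in TP10 than higher. Of the 70 tested, 28 (40.0%) were lower and 2 (2.86%) higher, against 21.9% lower and 22.0% higher among all genes and unnamed features (limma). The share called in either direction, 42.9%, lay near the background of 43.9%, while the directions were unequal. The median of the subunit genes was -0.26 log2, against 0.01 over all features tested. The members were chosen with earlier results known, and no test over the list was made. Without preparation 2 the calls numbered 18 of 70, of which 16 were lower and 2 higher. In that setting 6749 of 19346 features tested were called, 3265 of them lower and 3484 higher. Whichever preparation was left out, 14 of the lower genes passed, while glr-5 and every lower gene with a mean nearer 0 than that of glr-4 lost its call without at least 1 preparation. With each gene tested on its own spread, without limma's moderation, 0 subunit genes passed after adjustment and 23 had an unadjusted p under 0.05. Of the 70, 43 (61.4%) lay below 0 on all 3 arrays, against 33.4% of all features tested.

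At least 2-fold lower were 4 subunit genes (5.71%), against 8.30% of all features tested, and at least 2-fold higher was 1, against 8.28%. Without preparation 3, 8 of 72 subunit genes (11.1%) were at least 2-fold lower, against 9.63% of all features tested. The log2 ratios of the subunit genes had an SD of 0.57, 0.52 and 0.35 across genes on arrays 1, 2 and 3, against 0.89, 0.85 and 0.67 across all features tested. The quartiles of the subunit means were -0.56 and -0.12 log2. The cumulative plot shows this as a curve shifted to the left and steeper than that of all genes.

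**Figure D1:**
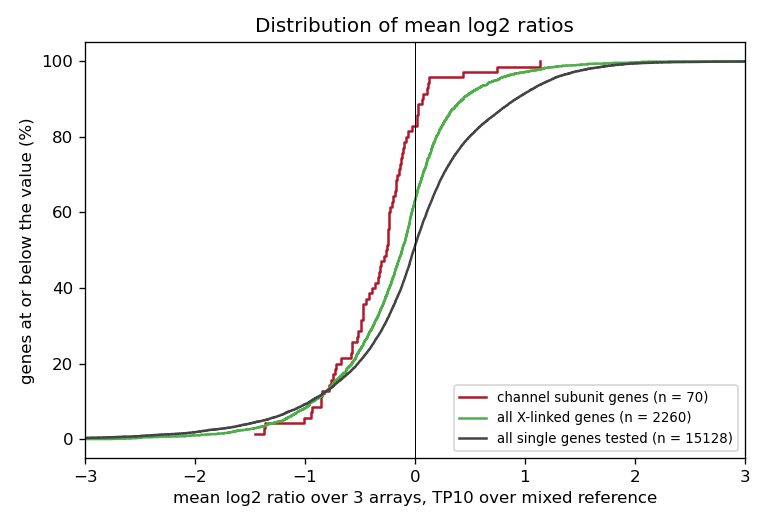
Cumulative share of genes (%) against the mean log2 ratio of TP10 over mixed reference on 3 arrays, for channel subunit genes, X-linked genes and all single genes tested. The curve of the 70 subunit genes, with a median of -0.26, lies left of the others over most of its range, and crosses them near the low end, where few subunit genes fall.

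RNA came from whole animals, so fewer cells of a type and less RNA per cell cannot be told apart. Most neuronal markers moved the same way as the lower subunit genes. Of 13 measured, 9 were lower (69.2%) and none higher, against 21.9% and 22.0% of all features tested. Their median was -0.96 log2, with a range of -2.83 to 0.15. The 4 that did not pass were unc-119 at -0.40, egl-21 at 0.03, unc-31 at 0.04 and snb-1 at 0.15. The lowest were ida-1 at -2.83 ± 0.25, sbt-1 at -2.43 ± 0.24 and unc-13 at -2.19 ± 0.40 (SD, n = 3). Body wall muscle markers, in contrast, had a median of 0.07, with 1 of 7 higher, mup-2 at 0.81 ± 0.49, and none lower. The part of either tissue, and of the higher germ line transcripts, in the subunit ratios was not tested.

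The lowest subunit gene was lgc-34, a pentameric channel subunit gene, with log2 ratios of -1.66, -1.74 and -0.97 on arrays 1, 2 and 3. Its mean was -1.46 ± 0.42 (SD, n = 3), or 2.75-fold lower (limma, adjusted p = 0.000112). All 3 arrays lay far below 0, with array 3 the least. Next came lgc-22, also of the pentameric superfamily, at -1.75, -1.46 and -0.91 (mean -1.37 ± 0.43, 2.59-fold lower, limma adjusted p = 0.000166). lgc-44 stood at -1.33, -1.50 and -1.28, with the closest agreement between arrays of the 4 genes at least 2-fold lower (mean -1.37 ± 0.11, 2.58-fold lower, limma adjusted p = 4.43e-05). The other was acr-19, a nicotinic subunit gene of the ACR-16 group, at -1.26, -1.24 and -0.54 (mean -1.01 ± 0.41, 2.02-fold lower, limma adjusted p = 0.000956). None of these 4 calls was lost when any 1 preparation was left out.

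**Figure D2:**
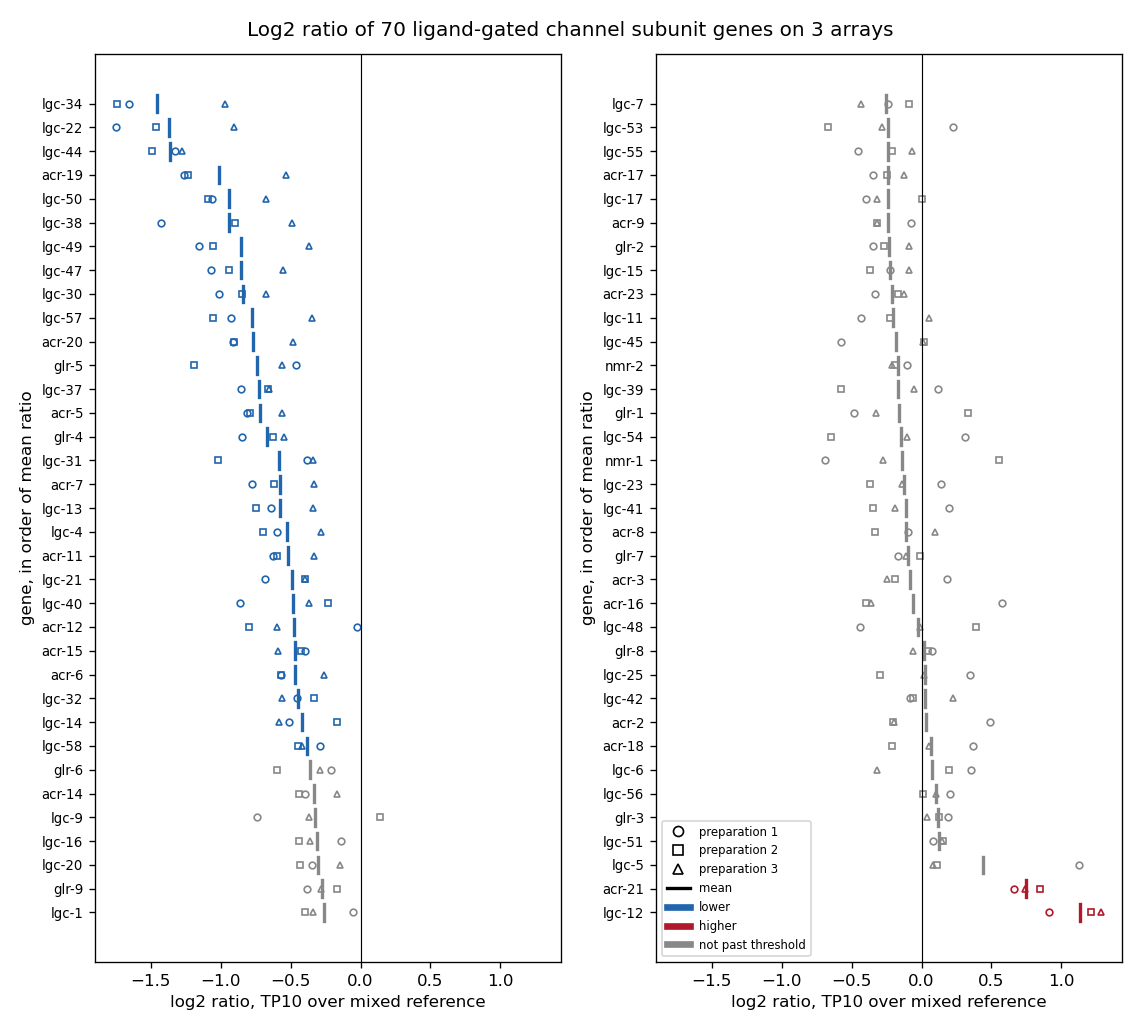
Log2 ratio of TP10 over mixed reference for the 70 channel subunit genes, in order of their mean, with preparations 1, 2 and 3 as circles, squares and triangles, the mean as a bar, and colour for lower, higher or not past the threshold. The 28 lower genes have all 3 preparations below 0, lgc-12 and acr-21 stand apart at the high end, and among genes not past the threshold the preparations often straddle 0.

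The subunit genes that rose were lgc-12 and acr-21. lgc-12, of the pentameric superfamily, had log2 ratios of 0.91, 1.21 and 1.28 on arrays 1, 2 and 3, a mean of 1.14 ± 0.20 (SD, n = 3) or 2.20-fold higher (limma, adjusted p = 0.000170). acr-21, a nicotinic subunit gene of the ACR-16 group, stood at 0.66, 0.85 and 0.74, a mean of 0.75 ± 0.09 or 1.68-fold higher (limma, adjusted p = 0.00152). All 6 values were above 0.6 log2 and the arrays agreed closely. Both calls held when any 1 preparation was left out and when arrays were centred within blocks of features. Both genes lie on chromosome III, which carried 9 of the subunit genes tested, 4 of them lower. The next highest gene, lgc-5, was at 1.12, 0.11 and 0.09, with a mean of 0.44 ± 0.59 that did not pass (limma, adjusted p = 0.115). Without preparation 3 its mean was 0.62 and passed (limma, adjusted p = 0.0486), and without preparation 1 it was 0.10 (limma, adjusted p = 0.660); lgc-5 was chosen after its values were seen.

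Nicotinic acetylcholine receptor subunits fall into 5 groups by sequence, in which acr genes stand beside genes named for mutant phenotypes. In the ACR-16 group, which takes its name from a subunit of the levamisole-insensitive receptor of body wall muscle, 4 of 9 measured genes fell (44.4%) and 1 rose (11.1%), against 21.9% and 22.0% of all features tested, around a median of -0.33 log2. Beside acr-19 the lower genes were acr-7 at -0.58 ± 0.23, acr-11 at -0.52 ± 0.16 and acr-15 at -0.47 ± 0.10 (SD, n = 3). acr-16 itself had values of 0.57, -0.40 and -0.36 on arrays 1, 2 and 3 (mean -0.06 ± 0.55). Array 1 lay on the other side of 0 from arrays 2 and 3. The 95% interval of the mean, -0.50 to 0.38, excluded a 2-fold difference in either direction on limma's moderated spread. No interval was computed on the gene's own spread. Centred within blocks of features with the difference kept, array 1 came to 0.03 and the mean to -0.27, still not past the threshold (limma, adjusted p = 0.140). Without the difference kept they came to 0.07 and -0.21, also not past it (limma, adjusted p = 0.238). eat-2, needed for fast pharyngeal pumping, stood at -0.04 ± 0.30.

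The UNC-38, UNC-29 and ACR-8 groups supply the levamisole-sensitive receptor of body wall muscle and the receptors of cholinergic motor neurons. The levamisole receptor genes lev-1 and unc-29 were lower at -1.25 ± 0.32 and -1.03 ± 0.29, and unc-38 was lower at -0.75 ± 0.18 (SD, n = 3). lev-8, of the same receptor, at -0.20 ± 0.22, and acr-8, its relative in the ACR-8 group, at -0.11 ± 0.21, did not pass. acr-8 turned to 0.056 when centred within blocks without the difference kept. acr-6, of the UNC-38 group, was lower at -0.47 ± 0.18. Of the motor neuron subunit genes, acr-12 had values of -0.03, -0.80 and -0.60 on arrays 1, 2 and 3 and was only just past the threshold (mean -0.47 ± 0.40, limma adjusted p = 0.0474). Its call was lost without preparation 2 (limma, adjusted p = 0.301) or preparation 3 (limma, adjusted p = 0.163), and with values on at least 2 arrays required in place of 3 (limma, adjusted p = 0.0526). acr-2, a subunit gene of the same neurons whose gain-of-function allele causes convulsions, stood at 0.49, -0.20 and -0.20, a mean of 0.03 ± 0.40. Its neighbour acr-3 stood at 0.18, -0.19 and -0.25. In both genes array 1 lay above 0 and arrays 2 and 3 below it, and neither passed (limma, adjusted p = 0.914 and 0.691). Centred within blocks, acr-2 turned to -0.062 with the difference kept, and acr-3 to 0.046 without it.

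In the DEG-3 group 4 of 7 measured genes were lower (57.1%) and none higher, against 21.9% and 22.0% of all features tested. The median of the group was -0.62 log2. Of its genes, deg-3 and des-2 lie outside the symbol prefixes and are counted again among the subunit genes with other names. deg-3 was the lowest at -1.44 ± 0.64, and des-2, which encodes its partner in one receptor and lies next to it, was at -0.62 ± 0.25 (SD, n = 3). acr-20 was lower at -0.91, -0.91 and -0.48 on arrays 1, 2 and 3, a mean of -0.77 ± 0.25 (limma, adjusted p = 0.00218). acr-5 was lower at -0.81, -0.79 and -0.56, a mean of -0.72 ± 0.14 (limma, adjusted p = 0.00211). That value averaged 2 features that differed, with means of -1.11 and -0.34, and taken alone the second did not pass (limma, adjusted p = 0.130). acr-23, which encodes a betaine-gated channel targeted by the anthelmintic monepantel, stood at -0.34, -0.17 and -0.13, a mean of -0.21 ± 0.11 that did not pass (limma, adjusted p = 0.261).

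Among the 41 lgc genes 18 fell (43.9%) and 1 rose (2.44%), against 21.9% and 22.0% of all features tested. The median of the lgc genes was -0.31 log2. Genes of the GABA receptor clade were lower without exception among those measured. lgc-38 stood at -1.43, -0.90 and -0.49 on arrays 1, 2 and 3 (mean -0.94 ± 0.47, limma adjusted p = 0.00201), and lgc-37 at -0.85, -0.66 and -0.66 (mean -0.72 ± 0.11, limma adjusted p = 0.00195). With them, unc-49, the GABA-gated chloride channel gene of body wall muscle, was at -1.12 ± 0.32, exp-1, which encodes a GABA-gated cation channel of the defecation circuit, at -0.94 ± 0.31, and gab-1, the neighbour of lgc-37, at -0.64 ± 0.37 (SD, n = 3). These 5 genes were grouped after their values were seen.

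In the clade of acetylcholine-gated chloride channels, 5 of 7 genes named here were lower, against 21.9% of all features tested. lgc-49 stood at -1.16, -1.05 and -0.37 on arrays 1, 2 and 3 (mean -0.86 ± 0.43, limma adjusted p = 0.00280), and lgc-47 at -1.07, -0.94 and -0.55 (mean -0.86 ± 0.27, limma adjusted p = 0.00126). Preparation 3 was the nearest to 0 in both. Of the acc genes of the same clade, acc-1 at -0.69 ± 0.19, acc-4 at -0.67 ± 0.41 and acc-3 at -0.49 ± 0.37 were lower (SD, n = 3). acc-2 at -0.05 ± 0.12 and lgc-48 at -0.02 ± 0.42 did not pass, and lgc-48 turned to 0.043 when centred within blocks without the difference kept. This grouping too was made after the values were seen.

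Among the genes of channels gated by amines, some passed and others did not, and differences between these genes were not tested. lgc-50, the gene of a serotonin-gated cation channel, was lower at -1.06, -1.09 and -0.67 on arrays 1, 2 and 3, a mean of -0.94 ± 0.23 (limma, adjusted p = 0.000599). lgc-40, whose product responds to serotonin and choline, was lower at -0.49 ± 0.33, and that call was lost without preparation 1 or preparation 3 (limma, highest adjusted p = 0.152). lgc-55, the tyramine-gated chloride channel gene, did not pass at -0.45, -0.21 and -0.07, a mean of -0.24 ± 0.19 (limma, adjusted p = 0.214). lgc-53, the gene of a dopamine-gated channel, had values of 0.22, -0.67 and -0.28 and a mean of -0.24 ± 0.45 (limma, adjusted p = 0.312). Without preparation 1, the 1 array above 0, its mean was -0.48 and passed (limma, adjusted p = 0.0475). The mean of lgc-53 did not pass without preparation 2, at -0.03 (limma, adjusted p = 0.937), or without preparation 3, at -0.22 (limma, adjusted p = 0.488).

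The remaining lgc genes among the 15 lowest subunit genes were lgc-30 and lgc-57, for which no ligand is stated here. lgc-30 stood at -1.01, -0.85 and -0.68 on arrays 1, 2 and 3 (mean -0.84 ± 0.17, limma adjusted p = 0.000907). lgc-57 stood at -0.93, -1.06 and -0.35 (mean -0.78 ± 0.38, limma adjusted p = 0.00377). The other 8 lower lgc genes, lgc-40 among them, lay between -0.58 (lgc-31) and -0.39 (lgc-58), and included lgc-13, lgc-4, lgc-21, lgc-32 and lgc-14. Across the 28 lower subunit genes, 21 (75.0%) had array 3 nearest to 0, against 60.0% of all lower genes and features.

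Most ionotropic glutamate receptor genes did not pass. Of 9 glr genes tested, 2 were lower and none higher, and neither nmr gene passed. The 2 lower were 18.2% of the 11 together, near the 21.9% of all features tested, and the median of the 11 was -0.17 log2. glr-5 was lower at -0.47, -1.20 and -0.56 on arrays 1, 2 and 3, a mean of -0.74 ± 0.40 (limma, adjusted p = 0.00548). The largest departure was on array 2, and without preparation 2 the call was lost (limma, adjusted p = 0.0655). glr-4 was lower at -0.85, -0.63 and -0.55, a mean of -0.67 ± 0.16 (limma, adjusted p = 0.00338), and its 2 features had similar means of -0.75 and -0.59.

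The AMPA-type subunit gene glr-1, which acts in the command interneurons for locomotion, stood at -0.48, 0.33 and -0.33, a mean of -0.16 ± 0.43. glr-2, of the same type, was at -0.35, -0.27 and -0.09, a mean of -0.24 ± 0.13. Neither passed (limma, adjusted p = 0.508 and 0.213), and glr-1 had preparations on both sides of 0. The NMDA-type subunit gene nmr-1 showed the widest spread of the family, at -0.69, 0.55 and -0.27 (mean -0.14 ± 0.63). nmr-2 was close to 0 on every array at -0.11, -0.19 and -0.21 (mean -0.17 ± 0.06). In nmr-1 preparation 2 had the sign opposite to preparations 1 and 3, as it did in glr-1. The 95% interval of nmr-1, -0.62 to 0.34 log2, excluded a 2-fold difference on limma's moderated spread. No interval was computed on the wide spread of nmr-1 itself.

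glr-6 stood at -0.21, -0.60 and -0.29, a mean of -0.36 ± 0.20 that did not pass (limma, adjusted p = 0.0707). Centred within blocks of features with the difference kept, glr-6 passed at -0.55 (limma, adjusted p = 0.00600). Without the difference kept it passed at -0.49 (limma, adjusted p = 0.0118). glr-9 was at -0.38, -0.17 and -0.28, a mean of -0.28 ± 0.11 (limma, adjusted p = 0.140), and passed at -0.38 after centring within blocks with the difference between the first and last 10000 features kept (limma, adjusted p = 0.0250). glr-7 and glr-8, both described from the pharynx, were close to 0. glr-7 stood at -0.17, -0.01 and -0.11 (mean -0.10 ± 0.08) and glr-8 at 0.08, 0.05 and -0.06 (mean 0.02 ± 0.08). glr-3, which encodes a receptor also described as a cold sensor, was above 0 on each array at 0.19, 0.12 and 0.04, but its mean of 0.12 ± 0.07 did not pass (limma, adjusted p = 0.541). Centred within blocks, with and without the difference kept, glr-3 turned to -0.041 and -0.13 and glr-8 to -0.070 and -0.0076. glr-10 had values on 2 arrays only, 0.05 and 0.54, and was not in the test.

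In all, 40 subunit genes did not pass, with means from -0.36 (glr-6) to 0.44 (lgc-5). Of these, 30 had a mean below 0. For all 40 the 95% interval of the mean, on limma's moderated spread, lay within 1 log2 unit of 0. A 2-fold difference fell outside each of these intervals, while some smaller differences lay inside. The moderated spread is drawn in part from all genes, and intervals on each gene's own spread were not computed.

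**Figure D3:**
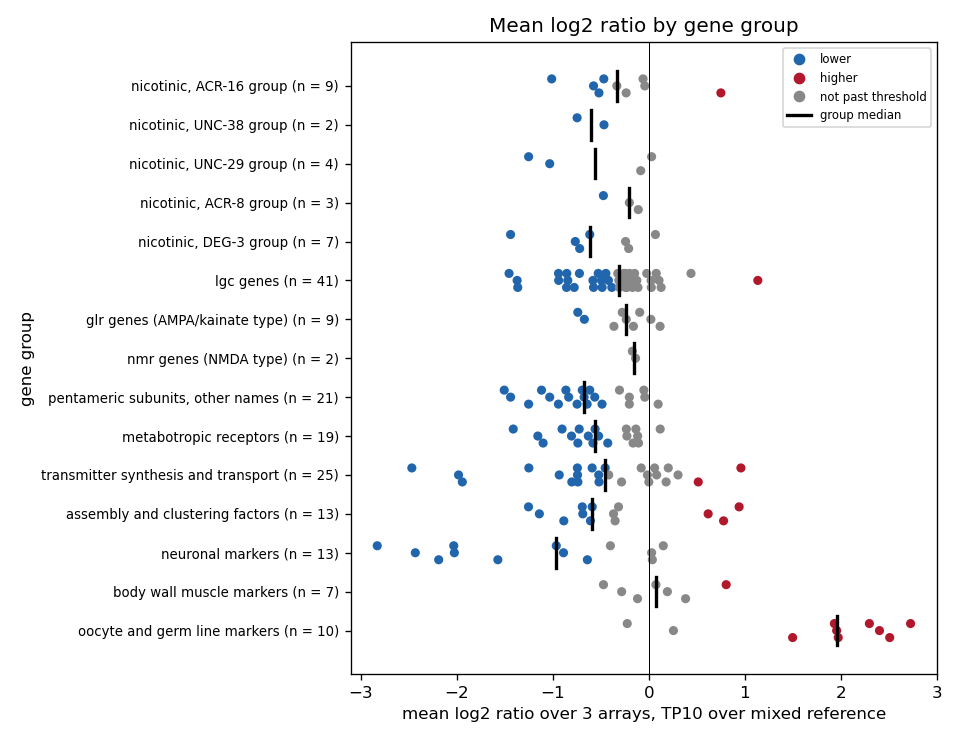
Mean log2 ratio of TP10 over mixed reference by gene group, each point a gene coloured by its call and each bar the median of its group. The nicotinic groups, the lgc genes and the glutamate receptor genes have medians between -0.62 and -0.16, neuronal markers reach -2.83, and oocyte and germ line markers lie at up to 2.73.

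On the X chromosome, which in these data held fewer higher genes than the autosomes, lay 24 of the 70 subunit genes. Of these 9 (37.5%) were lower and 0 higher, against 28.1% lower and 10.1% higher among 2260 X-linked genes (limma). No X-linked subunit gene above 0 had an unadjusted p under 0.05 either. Of the 46 autosomal subunit genes 19 (41.3%) were lower and 2 (4.35%) higher, against 22.98% and 24.3% of 12789 autosomal genes. The medians were -0.24 log2 for X-linked and -0.27 for autosomal subunit genes, against -0.12 and 0.01 for all X-linked and autosomal genes. The 4 genes at least 2-fold lower were autosomal, and the lowest on X was lgc-47.

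**Figure D4:**
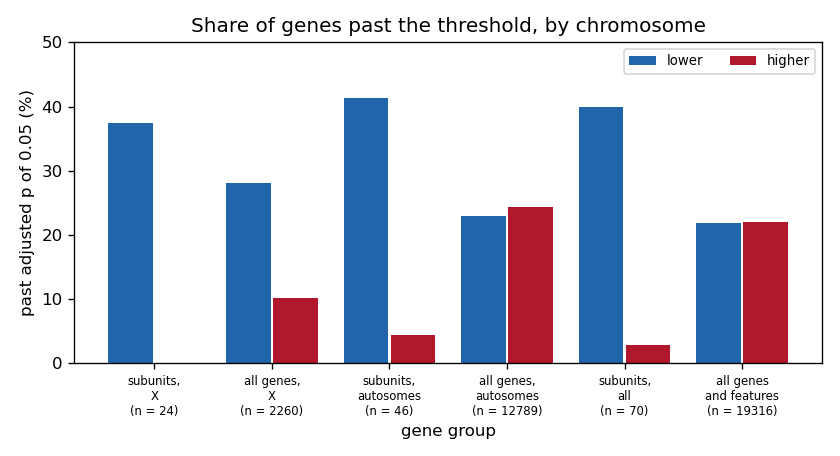
Share of genes past an adjusted p of 0.05 (%), lower and higher in TP10, for channel subunit genes beside all genes of the same chromosomes. Subunit genes on X and on autosomes have similar shares lower, 37.5% and 41.3%, whereas among all genes the share of higher genes is larger on autosomes than on X, 24.3% against 10.1%.

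Several subunit genes lie side by side, and neighbours did not always share a call. On X, lgc-13 to lgc-17 are adjacent, and 1 protein-coding gene separates lgc-17 from lgc-18. The adjacent genes had means of -0.58, -0.42, -0.23, -0.31 and -0.24 for lgc-13, lgc-14, lgc-15, lgc-16 and lgc-17. Of these only lgc-13 and lgc-14 passed (limma, adjusted p = 0.00951 and 0.0426), and lgc-18, measured on 2 arrays only at 0.16 and -0.01, was not tested. With arrays centred within blocks of features the lgc-13 call was lost, its mean being -0.31 with the difference between the first and last 10000 features kept and -0.25 without it. The lgc-14 call was lost at -0.31 where the difference was not kept. On the same scales lgc-15 turned to 0.034 and 0.096, and lgc-16 came to -0.051 and 0.011, neither past the threshold. acr-15 was lower and its neighbour acr-16 was not past the threshold, and lgc-5 and lgc-6 stood at 0.44 ± 0.59 and 0.08 ± 0.35 (SD, n = 3), neither past it. lgc-6 turned to -0.099 and -0.037 when centred within blocks, with and without the difference kept. deg-3 with des-2, and gab-1 with lgc-37, were lower in both genes, while acr-2 with acr-3 passed in neither. Whether features of such related genes share signal by cross-hybridisation was not tested.

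The other genes of ligand-gated transmission were taken from lists chosen with earlier results of these data known. Among 21 pentameric subunit genes with other names, 15 fell (71.4%) and none rose, against 21.9% and 22.0% of all features tested. Their median was -0.67 log2. The largest changes were glc-1, a glutamate-gated chloride channel gene and ivermectin target, at -1.51 ± 0.46, deg-3 and lev-1. The glutamate-gated chloride channel genes avr-14 and glc-4 were lower at -0.86 ± 0.56 and -0.84 ± 0.44 (SD, n = 3). avr-15, glc-2 and glc-3, of the same channel class, did not pass at -0.31, -0.20 and 0.10.

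Of 13 factors for assembly and clustering of these channels, 7 fell (53.85%) and 3 rose (23.1%), against 21.9% and 22.0% of all features tested. The share that rose was thus near the background. The median was -0.59 log2. The largest changes were rpy-1, a rapsyn homologue, at -1.25 ± 0.34, ric-3, a chaperone for nicotinic receptors, at -1.14 ± 0.38, and nra-2, which encodes an endoplasmic reticulum protein, at 0.94 ± 0.18 (SD, n = 3). The other higher genes were nra-4, whose product partners that of nra-2, at 0.62 ± 0.14, and unc-50, which encodes a Golgi protein, at 0.78 ± 0.44. Both were chosen after their values were seen.

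Genes for making, loading, taking up or breaking down transmitters numbered 25, of which 13 fell and 2 rose, and their median was -0.46 log2. The largest changes were unc-25, which encodes the GABA-synthesising enzyme, at -2.47 ± 0.14, the glutamate transporter gene glt-5 at -1.98 ± 0.33 and the GABA transporter gene snf-11 at -1.94 ± 0.66 (SD, n = 3). The vesicular transporter genes eat-4 for glutamate, unc-17 for acetylcholine and unc-47 for GABA were lower at -0.93 ± 0.03, -0.80 ± 0.40 and -0.74 ± 0.31. Of 19 metabotropic receptor genes for the same transmitters 12 fell and none rose, at a median of -0.56. The largest changes were the muscarinic receptor genes gar-3 at -1.41 ± 0.51 and gar-2 at -1.10 ± 0.33, and the glutamate receptor gene mgl-2 at -1.16 ± 0.39. The background for these counts is the 21.9% of all features that were lower and the 22.0% that were higher.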

How the data were processed

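The authors deposited log2 ratios between both channels, with 19864, 19855 and 19854 features on arrays 1, 2 and 3. The log2 scale was inferred because back-transformed values were whole thousandths (within 0.01) in at least 99.98% of cases. Background correction, normalization and dyes are not given in the sources used here, and the array number limits the precision.

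Features were named by the platform annotation and, through gene identifiers, by current RefSeq symbols of assembly WBcel235; 15655 features had 1 gene and 15569 of these matched. Features of a gene were averaged, a value on all 3 arrays was required, and each array was centred on its median. limma 3.58.1 in R 4.3.3 (lmFit, eBayes) was tested on simulated data and fitted over all 19316 genes and unnamed features. The reference has no replicates, so its spread and any dye bias are outside the error.

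Members and lists were chosen with earlier results of these data known. Named genes were all higher members, the 15 lowest past the threshold, all glr and nmr genes, genes of known role and the 3 largest changes per list; others are marked or given in groups.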

Additional observations from a re-analysis of the deposited data

How the results depend on the processing

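Of the 30 subunit genes called, 16 (14 lower, 2 higher) passed whichever preparation was left out. Leaving out 1 preparation gave 18 to 27 calls, 16 to 25 of them lower, and 3 to 8 at least 2-fold lower. Over all features tested the same settings gave 6749 to 7811 calls, 3265 to 3840 of them lower. The 18 calls and 16 lower came without preparation 2. The 8 at least 2-fold lower came without preparation 3, whose ratios were the most compressed. Centring, scaling, quantile normalization, robust eBayes, array weights, features kept apart, values on at least 2 arrays and removal of the tenth of genes with the highest SD gave 29 to 33 calls, and so did centring within blocks of 250 features, chosen after seeing the data (31, or 30 without keeping the difference between the first and last 10000 features). Membership by platform symbol gave the same 30. The 33 calls came after removal of the genes with the highest SD, which left 66 subunit genes. That removal lowers the spread used in the test, so it was no check on the calls. Testing each gene on its own spread, without moderation, called 0 subunit genes (0 higher, 0 lower, 0 at least 2-fold lower) and 1 of all features (0 higher, 1 lower), while 23 subunit genes and 6830 of all features had an unadjusted p under 0.05.

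Changes of direction occurred in 6 of 32 genes named by the rule, none past the threshold. acr-2 came to -0.031 with quantile normalization, -0.025 scaled, -0.073 with array weights, -0.062 centred within blocks with the difference kept, and -0.20 to 0.14 without 1 preparation. nmr-1 came to 0.0075 with array weights and to -0.48 to 0.14 without 1 preparation, glr-1 to -0.41 to 4e-04 and acr-16 to -0.38 to 0.11. glr-8 came to -0.0695 and -0.0076, and glr-3 to -0.0405 and -0.13, centred within blocks with and without the difference kept; glr-8 ran from -0.0078 to 0.0648 without 1 preparation. The cause was not tested. No paired analysis was possible because the arrays form 1 group against a common reference.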
